A study of Ovis aries with 8 samples.

Results

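Ovine skeletal muscle satellite cells that received a miR-127 mimic were compared, gene by gene, with the same kind of cells that received an antagomiR against miR-22-3p. The comparison used 4 of the 8 libraries of the series, 2 per group, and covered 16353 tested genes of 20921 gene rows. All groups were primary cells of the SuffolkxTexel genotype, transfected by lipofection at 60% confluence and harvested at day 4. The dose was 100 nM for the mimic and 500 nM for the antagomiR. The other 4 libraries came from cells given a control mimic or a control antagomiR, 2 of each, at a concentration that the labels do not state. Between the groups compared, the identity of the microRNA, the type of oligonucleotide (mimic or antagomiR) and its concentration all differ, so their parts in a difference cannot be told apart. The control groups differ in oligonucleotide type without a named microRNA, and their levels are therefore given beside those of the treated groups. The series title places the work in the study of satellite cell proliferation in culture.

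Satellite cells lie beside the muscle fibre, and when activated they divide and supply the nuclei for muscle growth and repair. A microRNA is a short RNA that guides an Argonaute protein to partly complementary sites in messenger RNAs, most often through its seed near the 5′ end, and lowers their stability or translation. A mimic is a duplex that loads the cell with more of a microRNA, so that its targets would be expected to go down, whereas an antagomiR is an antisense strand that occupies a microRNA, so that its targets would be expected to go up. The gene for miR-127 belongs to an imprinted microRNA cluster. In the RefSeq sheep annotation it lies inside the span of RTL1, a retrotransposon-derived gene, next to MIR433. The gene for miR-22 lies there inside a long non-coding RNA gene, between TLCD2 and WDR81, and miR-22 is known as an abundant microRNA of striated muscle.

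The deposited table names genes only by Ensembl sheep identifiers, and 0 of them could be paired with a symbol. Functions, pathways, microRNA target lists and the markers of satellite cells were therefore not examined, and 2 identifiers are named per direction. The libraries compared held 33080031 and 27971020 counts for the miR-127 mimic and 34243423 and 35843926 counts for antagomiR-22-3p. The labels name no animal for any library. P-values therefore reflect the spread of these libraries alone, which may be technical. They were not copies of each other: chi-square per degree of freedom between replicates was 32.8 for the mimic and 18.4 for the antagomiR, where sampling noise alone gives about 1 for independent counts and about 2 if each read pair was counted as 2. In bulk RNA, a lower level in every cell and fewer cells of an expressing type cannot be told apart.

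Cells given the mimic and cells given the antagomiR differed in the level of 692 genes, 4.23% of those tested, at an adjusted p of 0.05 or less (edgeR's quasi-likelihood test, Benjamini-Hochberg adjustment, n = 2 per group). Of these, 501 (3.06% of tested genes) were higher in the mimic and 191 (1.17%) were lower. Most differences were moderate. The median was 1.56-fold among the higher genes, with the middle 50% between 1.45-fold and 1.75-fold. Among the lower genes the median was 1.77-fold, with the middle 50% between 1.48-fold and 2.30-fold. A difference of at least 2-fold was reached by 55 of the 501 higher genes and by 68 of the 191 lower ones. At 4-fold or more there were 4 higher and 17 lower genes, and 15 of these 21 had a mean level under 10 CPM (counts per 1000000 counts of the library, after TMM scaling).

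**Figure D1:**
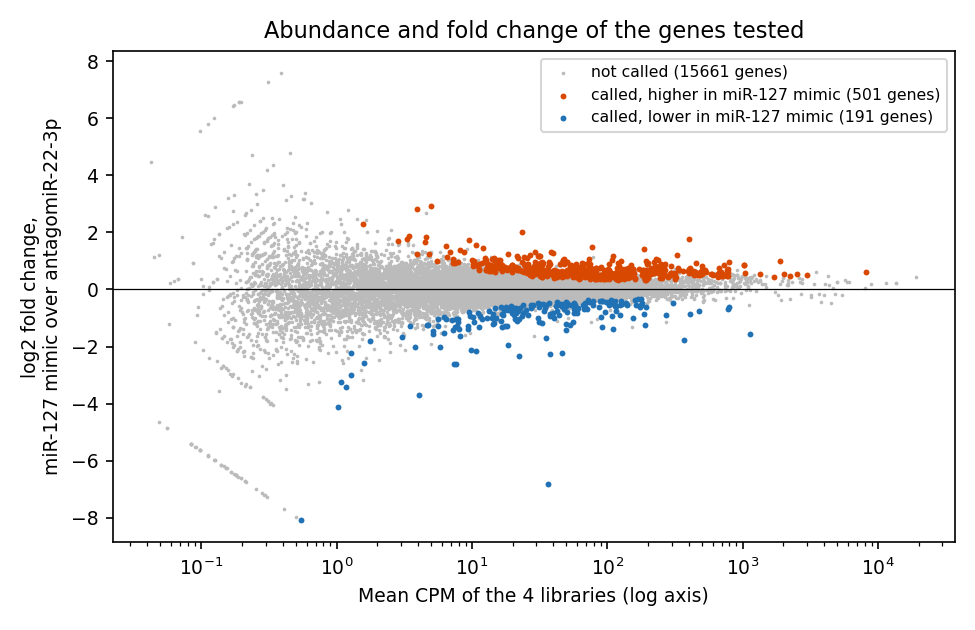
Each point is 1 of the 16353 tested genes, with its mean CPM over the 4 libraries compared on a log axis and its log2 fold change, miR-127 mimic over antagomiR-22-3p, on the vertical axis. Called genes (orange, 501 higher; blue, 191 lower) form a band of moderate positive values among abundant genes and a more scattered set of negative values that reaches lower abundance.

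The surplus of higher genes depended on how the libraries were scaled. With library totals in place of TMM factors, 393 genes were called higher and 533 lower, a share of 42.4% higher against 72.4% with TMM. Over all tested genes the median log2 fold change was -0.12 with library totals and -0.01 with TMM. With RLE size factors the split was 503 higher and 192 lower. The direction of each of the 692 genes was the same in all 18 other fits run, with 0 sign changes. This is no measure of stability, because the fits share the same counts. No called gene overlapped between the groups compared, so leaving out a library could hardly reverse a direction. The smallest called difference was 1.25-fold, larger than the shift between the scalings.

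Abundance set which differences could be called. Among the 4089 most abundant genes, with means from 49.1 CPM upward, 301 were called higher and 70 lower, which is 9.07% of them. Of the 4088 least abundant, below 5.11 CPM, 10 were called higher and 14 lower, or 0.587%. The median standard error (SE) of the log2 fold change was 0.09 among the most and 0.55 among the least abundant genes. Called genes among the least abundant were accordingly those with large differences, at medians of 3.51-fold for higher and 5.30-fold for lower genes. Among the most abundant, the median was 1.5-fold in either direction. Equal differences were thus harder to call in rarer transcripts, and the counts do not rank the size of the response by abundance.

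Summed over the library, the 501 higher genes took 10.7% and 10.6% of all counts in the miR-127 mimic libraries. They took 7.48% and 7.45% in the antagomiR-22-3p libraries. The 191 lower genes took 0.882% and 0.940% in the mimic libraries and 1.69% and 1.74% in the antagomiR libraries. These shares come from unscaled counts, and they describe lists that were chosen on the same libraries.

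ENSOARG00000004281 had the largest fold change among the higher genes with a mean of at least 10 CPM. The mimic replicates measured 40.8 and 34.8 CPM and the antagomiR replicates 9.69 and 9.07 CPM, with no overlap. The group levels were 37.8 ± 4.19 and 9.38 ± 0.44 CPM (SD, n = 2), and the log2 fold change was 2.01 with an SE of 0.42 (adjusted p = 0.028, edgeR). The control libraries of this gene were far apart: the control mimic measured 41.3 and 13.4 CPM, the control antagomiR 17.0 and 27.9 CPM. The control mimic libraries thus reached as high as the treated ones and nearly as low as the antagomiR-22-3p ones. The call was lost without miR-127 mimic replicate 1 (adjusted p = 0.071 by edgeR), antagomiR-22-3p replicate 1 (0.11) or antagomiR-22-3p replicate 2 (0.12).

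ENSOARG00000016366 had the smallest p of the remaining higher genes. The mimic replicates measured 266 and 257 CPM and the antagomiR replicates 133 and 139 CPM. The group means of 261 ± 6.76 and 136 ± 4.28 CPM (SD, n = 2) differed by 0.94 on the log2 scale, with an SE of 0.08 (adjusted p = 0.0012, edgeR). The control mimic measured 212 and 215 CPM and the control antagomiR 127.5 and 139 CPM. Each mimic-type library was therefore above each antagomiR-type library, and the antagomiR-22-3p and control antagomiR values overlapped. Between the controls the log2 difference was 0.68 (adjusted p = 0.0028 by edgeR), beside 0.94 between the treated groups. The gene was called in all 18 other fits.

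ENSOARG00000018571 had the largest fold change among the lower genes with a mean of at least 10 CPM. The mimic replicates held 0 and 36 counts of it (0 and 1.41 CPM), the antagomiR replicates 3186 and 1968 counts (89.3 and 54.8 CPM). A count of 0 leaves room for up to 3, which is 0.0907 CPM of that library's unscaled total. The fitted log2 fold change was -6.81 (adjusted p = 0.0013 by edgeR). Its size is poorly measured with so few counts on the mimic side. All 4 control libraries lay in a narrow range between the groups, with 20.8 and 20.6 CPM for the control antagomiR and 21.8 and 24.1 CPM for the control mimic. The miR-127 mimic libraries thus stood below the controls and the antagomiR-22-3p libraries above them.

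ENSOARG00000000794 had the smallest p of the remaining lower genes. The mimic replicates measured 6.89 and 8.60 CPM and the antagomiR replicates 31.3 and 27.7 CPM. The means were 7.74 ± 1.21 and 29.5 ± 2.51 CPM (SD, n = 2), and the log2 fold change was -1.93 with an SE of 0.15 (adjusted p = 0.0012, edgeR). The control antagomiR measured 20.0 and 21.5 CPM and the control mimic 16.6 and 17.6 CPM, so that the 4 groups did not overlap and both controls again lay between the treated groups. This gene was called in all 18 other fits, with log2 fold changes from -2.10 to -1.78.

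**Figure D2:**
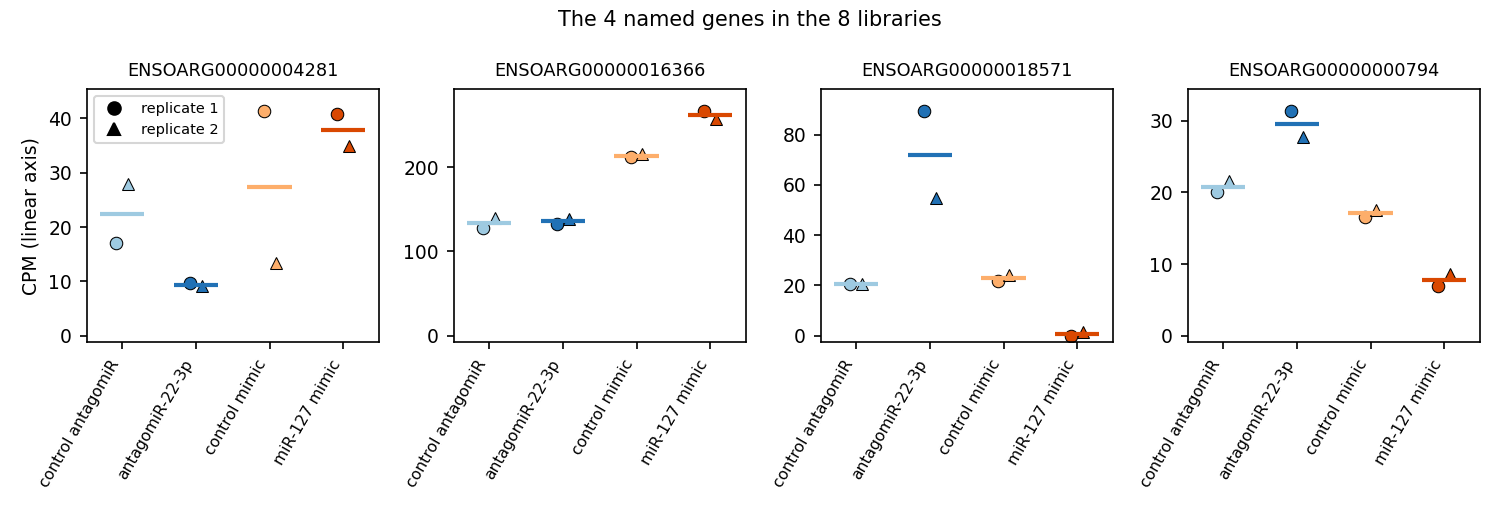
CPM on a linear axis for the 4 named genes in each of the 8 libraries, with circles for replicate 1, triangles for replicate 2 and a line at the group mean. ENSOARG00000016366 separates the 4 mimic-type from the 4 antagomiR-type libraries, whereas for ENSOARG00000018571 and ENSOARG00000000794 the control libraries lie between the treated groups.

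The level of the called genes in the control libraries, which took no part in the contrast itself, was then examined. Between the control mimic and the control antagomiR, 495 of the 501 higher genes had a difference of the same sign, and 174 of the 191 lower genes did, against 65.6% of all genes tested. The median log2 difference of the higher genes was 0.64 between the treated groups and 0.55 between the controls. For the lower genes it was -0.82 between the treated groups and -0.34 between the controls. The median over all genes was -0.01 in either contrast. Per gene, the control difference came to a median of 84.1% of the treated difference among the higher genes and 40.4% among the lower genes. It was at least as large as the treated difference for 172 higher and 6 lower genes, and of the opposite sign for 6 higher and 17 lower genes. All of these values used TMM factors. With library totals, the same higher genes had median differences of 0.53 between the treated groups and 0.39 between the controls. The same lower genes then had medians of -0.94 and -0.50, so the contrast between the directions was smaller with that scaling. The treated libraries also chose the genes, so the treated differences may be overstated relative to those of the controls.

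The calls of both contrasts were set side by side. Of the 501 higher genes, 295 (58.9%) were also called higher in the control mimic than in the control antagomiR, where 4.05% of all tested genes were. Of the 191 lower genes, 22 (11.5%) were also called lower there, where 0.361% of all tested genes were. These shared genes made up 44.5% and 37.3% of the respective lists of the controls. The contrasts share no library, but 1 model gave each gene the same estimate of spread in both. When either contrast was fitted without the other's libraries, the treated groups gave 205 calls, and 149 of the 150 higher and 52 of the 55 lower ones had the same sign between the controls, against 66.1% of all genes. Their median control differences were 0.69 and -0.39.

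**Figure D3:**
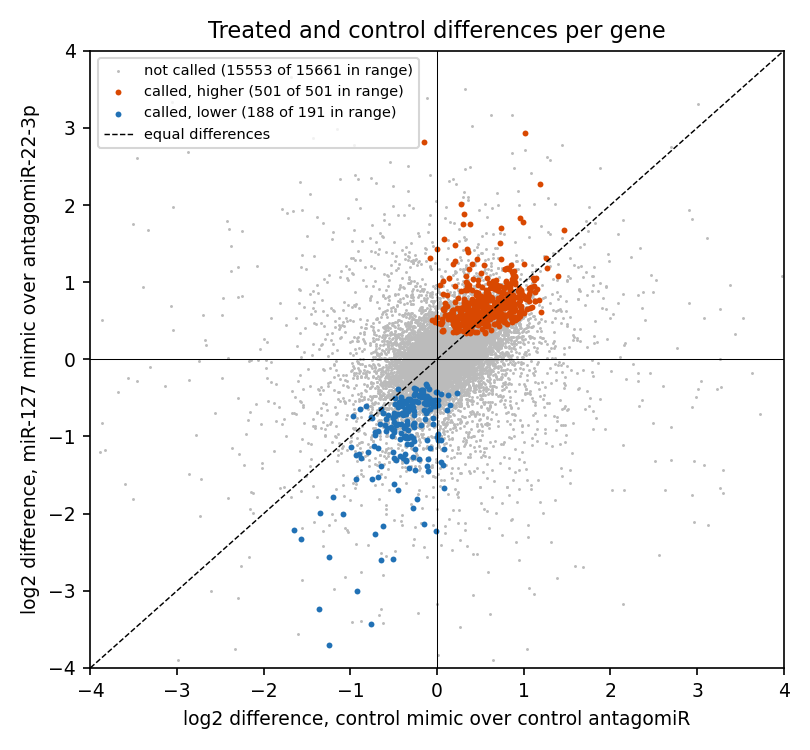
Log2 difference between the controls (control mimic over control antagomiR, horizontal axis) and between the treated groups (miR-127 mimic over antagomiR-22-3p, vertical axis) for each tested gene within 4 log2 units of 0, which leaves out 3 called genes. The called higher genes (orange) lie on both sides of the dashed line of equal differences, with medians of 0.55 and 0.64. Of these 501 genes, 172 lie on or below that line and the others above it. The called lower genes (blue) mostly lie below the line, with medians of -0.34 and -0.82.

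All mimic-type libraries stood above all antagomiR-type libraries for 457 of the 501 higher genes, where 9.66% of all tested genes showed that separation. All mimic-type libraries stood below for 134 of the 191 lower genes, where 7.34% of tested genes did. The treated libraries are part of this separation and had chosen the genes, so the counts are descriptive. Without the controls, 46.2% of all tested genes had no overlap between the 2 treated groups, and the 692 called genes were all among them.

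The place of the control groups was then counted for each direction. Among the higher genes, the miR-127 mimic had the highest mean of the 4 groups for 458 and the control mimic for 43. The lowest mean belonged to the control antagomiR for 356 of them and to antagomiR-22-3p for 144. Among the lower genes, the miR-127 mimic had the lowest mean for 187, antagomiR-22-3p the highest for 144 and the control antagomiR the highest for 46. Both control means lay between the treated means for 134 of the 501 higher and 142 of the 191 lower genes. With library totals in place of TMM factors, the same lists gave 197 and 101 instead, and antagomiR-22-3p then held the lowest mean for 215 higher genes and the highest mean for 102 lower genes. The position of antagomiR-22-3p relative to its own control therefore depended on the scaling, which moved the median difference of all genes between these 2 groups by -0.07. With that scaling the miR-127 mimic was at the extreme for 442 of the 501 higher and 188 of the 191 lower genes. The genes were chosen for a gap between the treated groups, which favours treated means at the extremes and control means between them. No share over all tested genes was taken, so the counts of this paragraph are descriptive.

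Measured from the mean of the 4 control libraries, the higher genes had median log2 levels of 0.42 and 0.51 with the miR-127 mimic and of -0.18 and -0.15 with antagomiR-22-3p. The control mimic replicates had medians of 0.25 and 0.31 and the control antagomiR replicates of -0.30 and -0.23. For the lower genes, the miR-127 mimic replicates had medians of -0.57 and -0.44 and the antagomiR-22-3p replicates of 0.23 and 0.29. The control mimic replicates then had medians of -0.16 and -0.14 and the control antagomiR replicates of 0.12 and 0.19. These values are descriptive: the genes were chosen on the treated libraries, and centring on the controls places the control groups around 0.

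**Figure D4:**
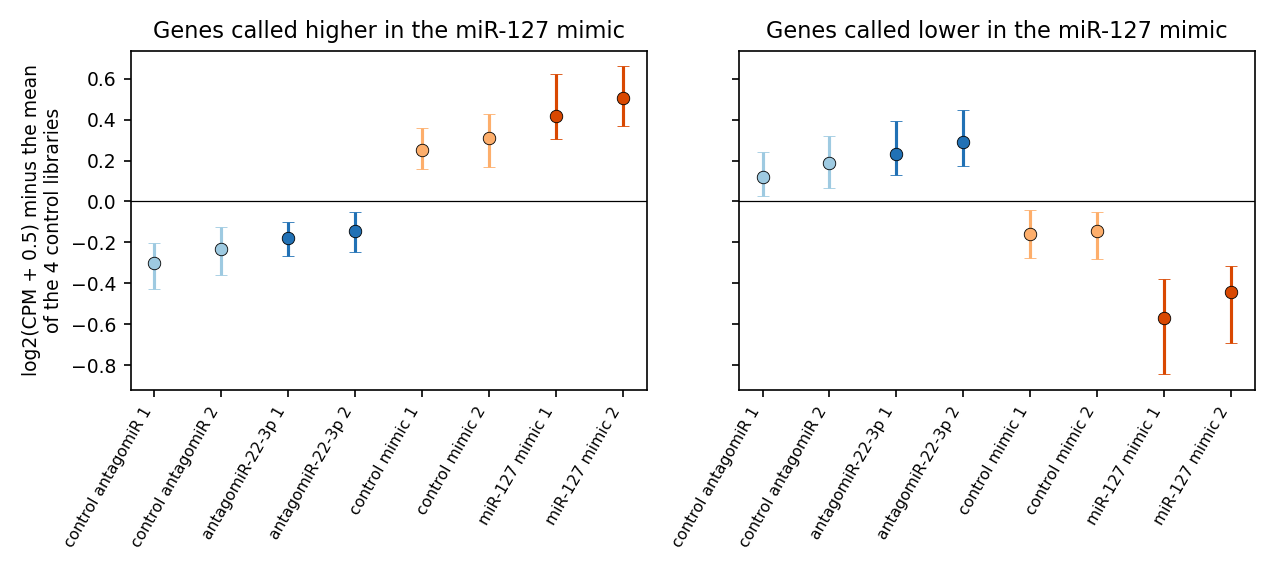
Median (point) and middle 50% (bar) of log2(CPM + 0.5), measured from each gene's mean over the 4 control libraries, for the 501 genes called higher (left) and the 191 called lower (right) in each of the 8 libraries. The higher genes step up mainly from the antagomiR-type to the mimic-type libraries, and the lower genes fall furthest in the miR-127 mimic libraries, at -0.57 and -0.44.

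For each gene, the treated contrast equals the control contrast plus the effect of the mimic minus the effect of the antagomiR, each against its own control. Medians over a list need not add up in this way. These parts share libraries with the contrast that chose the genes. For the higher genes, the median log2 difference of the miR-127 mimic from the control mimic was 0.20, and that of antagomiR-22-3p from the control antagomiR was 0.10. For the lower genes these medians were -0.36 and 0.09. With library totals they were 0.18 and 0.03 for the higher genes and -0.38 and 0.01 for the lower genes. No gene was called for either treatment against its own control in these libraries (0 genes each by edgeR's quasi-likelihood test, with 1143 and 824 at an unadjusted p under 0.05 for the mimic and the antagomiR, and 43 and 66 called by DESeq2).

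Whether the treated contrast differed from the control contrast was tested gene by gene. By edgeR's quasi-likelihood test 1 gene was called, 0.00612% of those tested. It was ENSOARG00000018571, whose treated log2 difference was lower than that of the controls (log2 difference -6.96, adjusted p = 0.043). The call was lost without control mimic replicate 1 (0.22) or 2 (0.54), control antagomiR replicate 1 (0.22) or 2 (0.26), or antagomiR-22-3p replicate 1 (0.11), all adjusted p by edgeR. It was also lost with DESeq2 (adjusted p = 0.42) and with the replicate number as a block (0.12). For the other named genes the difference was -1.65 (SE 0.21, adjusted p = 0.099) for ENSOARG00000000794, 1.74 (SE 0.58, adjusted p = 0.80) for ENSOARG00000004281 and 0.26 (SE 0.11, adjusted p = 0.80) for ENSOARG00000016366 by edgeR. Over the 692 called genes the median SE of this difference was 0.17 log2 units, and its median was 0.09 for the higher and -0.46 for the lower genes. The treated contrast that chose these genes is part of this difference. Its medians and the values of the named genes may therefore be overstated in the direction of the call, and they are descriptive. Without miR-127 mimic replicate 2, 110 genes were called in this test, 9 higher and 101 lower, where the spread of the single mimic library is taken from the other groups.

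The called genes were chosen by a test against the spread between these same replicates, so that spread is given here as a description. The median absolute log2 difference between the 2 libraries of a group, over the 692 genes, was 0.18 for the miR-127 mimic and 0.12 for antagomiR-22-3p. It was 0.11 for the control mimic and 0.13 for the control antagomiR, so the miR-127 mimic libraries were the least alike. Taking each mimic library against each antagomiR-22-3p library, 150 of the 501 higher and 90 of the 191 lower genes differed by at least 1.5-fold in all 4 pairings. By at least 2-fold, 13 higher and 33 lower genes did. These counts come from the libraries that chose the genes, and no share over all tested genes was taken, so they are descriptive.

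The number of calls rested on single libraries, and so did the genes called. A similar total did not mean the same genes, since leaving out either miR-127 mimic library replaced a part of the list. It was 162 without antagomiR-22-3p replicate 1 (104 higher, 58 lower) and 231 without antagomiR-22-3p replicate 2 (169 and 62). Without miR-127 mimic replicate 1 it was 752 (631 and 121), and without miR-127 mimic replicate 2 it was 600 (349 and 251). Leaving out a control library acts only through the shared estimates of spread, scaling and filter. Without control mimic replicate 1 or 2 there were 371 calls each, and without either control antagomiR library 655.

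**Figure D5:**
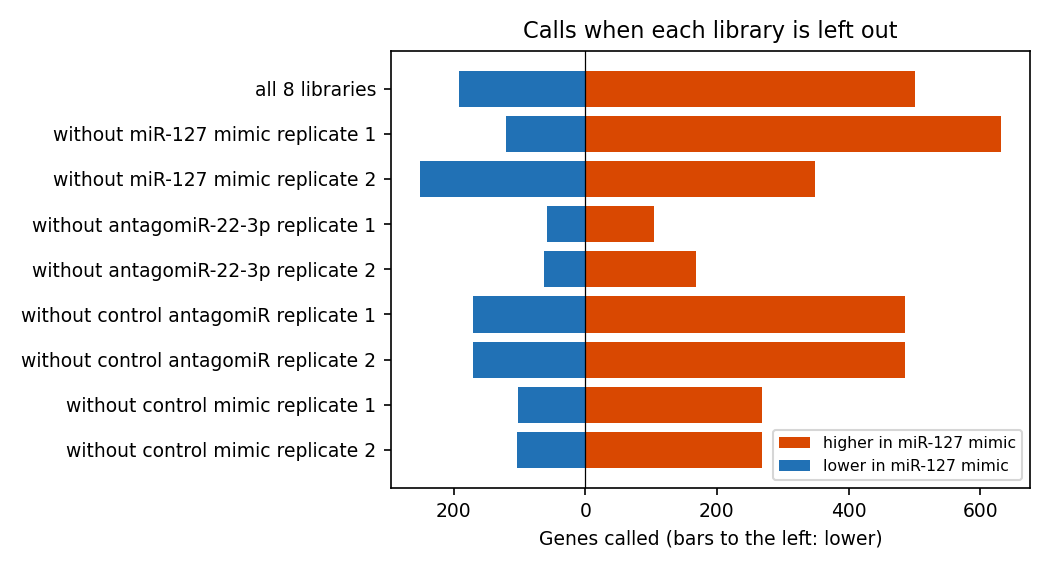
Genes called in the treated contrast with all 8 libraries and with each library left out, as bars to the right for genes higher and to the left for genes lower in the mimic. Bars give totals and do not show whether the same genes were called. The total falls from 692 to 162 and 231 without an antagomiR-22-3p library and to 371 without either control mimic library.

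A smaller list did not depend on any 1 of the libraries compared. It held 110 genes, 15.9% of the 692, that were called with all libraries and without each of the 4, and 109 of them were called in all 19 fits. Of the 110, 81 were higher in the miR-127 mimic, with a median of 1.85-fold, and 29 were lower, with a median of 2.41-fold. In this list 70 of the 81 higher genes were also called higher between the controls, where 4.05% of all tested genes were. Their median log2 difference was 0.72 between the controls, beside 0.88 in the treated groups. Of the 29 lower genes, 7 were also called lower between the controls, where 0.361% of all tested genes were. Their medians were -0.36 between the controls and -1.27 in the treated groups. The shared estimate of spread enters both the choice of this list and the control calls, so these counts are descriptive. ENSOARG00000016366, ENSOARG00000018571 and ENSOARG00000000794 belonged to this list, and ENSOARG00000004281 did not.

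Complete absence in 1 group was rare. No gene had at least 1 CPM in both miR-127 mimic libraries and no count in both antagomiR-22-3p libraries. The reverse held for 1 gene, which was called lower and had a mean of 0.54 CPM over the 4 libraries, so its fold change could not be measured. In all, 3 called genes had a count of 0 in at least 1 library compared, and all 3 were lower genes. Their 0 was in a mimic library, which is the only place it could be, because no called gene overlapped between the groups. No share over all tested genes was taken. Among the 501 higher genes, 22 had counts within 2% of those of another gene in each of the 8 libraries, and 0 of the 191 lower genes did. Over all 16353 tested genes, 74 did. Only genes with at least 1000 counts over the 8 libraries were searched, and the higher genes were the more abundant list (median 68.5 CPM against 33.6 CPM). The reads of such a pair may not be assignable to 1 of its genes, which was not tested.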

How the data were processed

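Poly(A)-selected RNA was sequenced on an Illumina platform, per the labels' protocols. The authors deposited raw read counts per Ensembl gene, 1 column per library. Per the submitters' processing notes, reads were handled with tools that include featureCounts 2.0.2, RSEM 1.3.3, edgeR 3.34.1, Trim Galore 0.6.5 and FastQC 0.11.8, whose roles are not stated. The sources used here give no genome build, annotation, strand setting or rule for multi-mapping reads. Among counts of 1 to 100, 11.9% to 15.6% were odd (about 50% for independent reads), so floors cover counting error only. Both mimic columns carry 1 description and were told apart by the title's experiment number. Symbols were sought in the RefSeq table of assembly ARS-UI_Ramb_v3.0.

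Genes were kept by edgeR's filter (minimum count 10, total 15), scaled with TMM factors and tested in R 4.3.3 with edgeR 4.0.16's 2-sided quasi-likelihood F test, with 1 mean per group over 8 libraries (4 residual and 6.29 prior degrees of freedom). The SE is the fold change divided by the root of F. The script was tested on simulated data. Named genes were not overlapping, had a mean of at least 10 CPM and no near-identical copy. In each direction the one with the largest fold and then the one with the smallest p were taken. The gene lists and cell type markers that had been planned need symbols and were not used. DESeq2 1.42.0 and limma 3.58.1 were alternatives. The comparison and these rules were chosen with earlier results of these data known.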

Additional observations from a re-analysis of the deposited data

Results flagged for a closer look

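ENSOARG00000018571 stood out because its difference between the mimic-type and antagomiR-type groups was not the same in treated and control cells by a test of that difference: the log2 value was -6.96 (adjusted p = 0.043, edgeR's quasi-likelihood test). The call was lost in 7 of 14 alternatives: with the replicate block (adjusted p = 0.12), with DESeq2 (0.42), without any 1 of the control libraries (0.22 to 0.54 by edgeR) and without antagomiR-22-3p replicate 1 (0.11). The mimic replicates measured 0 and 1.41 CPM, the antagomiR replicates 89.3 and 54.8 CPM and the 4 control libraries 20.6 to 24.1 CPM. Without miR-127 mimic replicate 2 the remaining mimic library has no count and the size cannot be measured. In the other settings run, the value lay between -7.28 and -5.82. What accounts for it was not tested.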

How the results depend on the processing

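The 692 calls became 205 with only the 4 libraries compared, 1265 with DESeq2, 1370 with edgeR's likelihood-ratio test, 172 at an adjusted p of 0.01, 1216 at 0.1 and 442 when at least 1.5-fold was required. They ran from 162 to 752 when a library was left out; the fits without a control library were added after the data were seen. With the replicate block there were 886 calls, and 407 with the block in only the 4 libraries compared. The titles number the libraries of each group as experiment 1 and 2, so a shared block is possible. The main fit did not pair the libraries by these numbers. Same-numbered libraries of the groups compared deviated with r = -0.06, which does not show that pairing has no effect on the calls. Over all 6 pairs of groups r ran from -0.09 to 0.25, the highest being that of control antagomiR with antagomiR-22-3p. With the block, added after the data were seen, 2 genes were called for the mimic and 0 for the antagomiR against their own controls (0 each without it). Counts with RLE size factors (695), library totals (926), no expression filter (910), a stricter filter (754) and limma voom (789) were within 1.5 times. Of the 692, 669 were called by all 4 tests (quasi-likelihood, DESeq2, likelihood-ratio and voom). The single call beyond the control contrast became 2 with library totals or no filter, 0 with the replicate block and 15 with DESeq2, and ran from 0 to 110 when a library was left out. The named genes kept their call in 69 of 72 alternative fits, and ENSOARG00000004281 lost it in 3. The named genes had been picked for a large fold or a small p in these same libraries, so how often they kept their call is descriptive. The causes of the changes between settings were not tested. A difference of given size was harder to call at low depth, with a median SE of 0.55 among the 4088 least abundant genes.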
